A study of Homo sapiens with 6 samples.

Results

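The genes described here are 10 ligands through which a cell signals to immune checkpoint and costimulatory receptors: CD274 (PD-L1), PDCD1LG2 (PD-L2), CD276 (B7-H3), VTCN1 (B7-H4), ICOSLG (ICOS ligand), CD80, CD86, PVR (CD155), NECTIN2 (CD112) and TNFSF9 (4-1BB ligand). They were picked by symbol from the platform's probe-to-gene table, each by its brightest record by mean intensity, and all 10 of 10 were found, each with 1 record, among 17185 named genes. The choice was made with the contrast of DCC-2036 with control in view, so the values of these 10 genes in that contrast are a description and carry no test. The tested cultures were MDA-MB-231 cells given DCC-2036 at 3.75 μM for 48 h (3 arrays), and the comparison cultures were the same line at 0 μM for 48 h (3 arrays), all grown in DMEM. MDA-MB-231, an established human line from a breast carcinoma of the triple-negative kind, holds tumour cells alone and models the ligand side of these contacts without the immune cells that carry the receptors. DCC-2036, also called rebastinib, is a kinase inhibitor of ABL1 and of TEK, TRK and SRC-family kinases.

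PD-L1 and PD-L2 bind PD-1 on activated T cells and dampen T cell receptor signalling. The B7 relatives CD80 and CD86 give the costimulatory signal through CD28 or are captured by CTLA4, and the nectin family members PVR and NECTIN2 are shared by the inhibitory receptor TIGIT and the activating receptor CD226. Tumour cells regulate PD-L1 through interferon-gamma and JAK-STAT signalling, growth factor and MAP kinase signalling, NF-kB and MYC, and the MDA-MB-231 line is widely used as a line that carries PD-L1 without added interferon.

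With DCC-2036, PD-L1 mRNA was 8.66-fold lower, the largest change among the 10 ligands, and B7-H3 mRNA was 4.07-fold higher. ICOSLG, TNFSF9, PDCD1LG2 and PVR were also lower, by 3.64-fold, 2.69-fold, 2.20-fold and 2.07-fold, and NECTIN2, CD80 and CD86 had overlapping groups. VTCN1 was 1.90-fold higher at a dim signal. In a limma fit over all 17185 genes with Benjamini-Hochberg adjustment, 7 of the 10 ligands lay past the threshold of 0.05, 2 higher and 5 lower. Among all genes 29.1% lay past it, 13.1% higher and 16% lower, and nothing is read from the ligands' count because the contrast entered their choice. The 10 ligands had a median log2 change of -0.63, and all genes one of 0.02. In 7 of the ligands the 3 values with DCC-2036 all lay on one side of the 3 control values, 2 of them above and 5 below. The same held for 46.5% of all genes, 22.2% above and 24.3% below, and again nothing is read from the count. Arrays measured bulk RNA, so fewer cells with a transcript and less transcript per cell cannot be told apart. The labels call the 3 experiments per group independent, without saying what was repeated, so p-values below measure the spread between these samples.

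**Figure D1:**
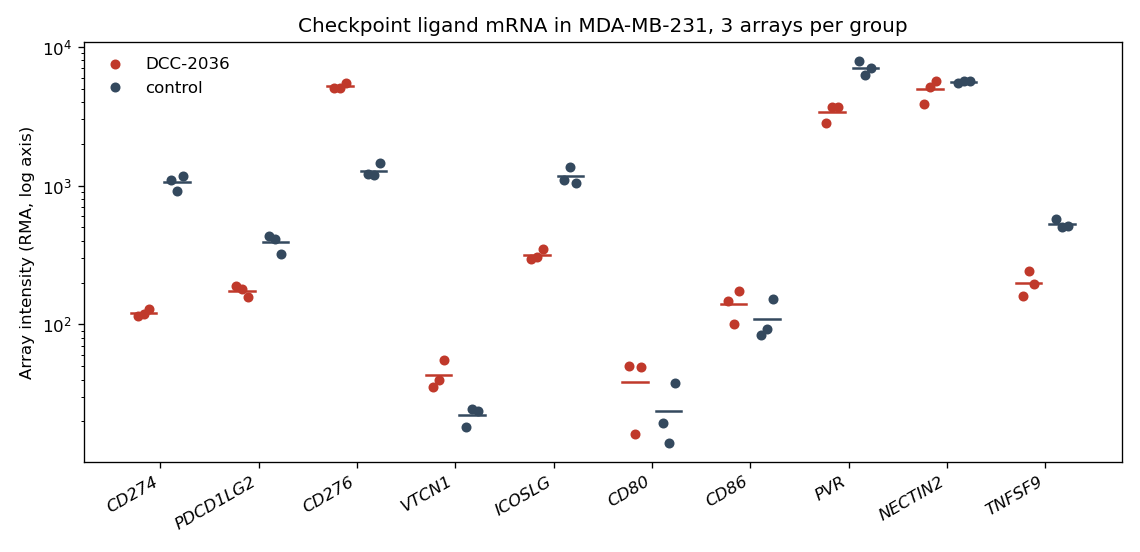
Intensity of each ligand on each array (points, log axis) with the group mean (bar), DCC-2036 in red on the left and control in dark blue on the right, 3 arrays per group. CD274 lay at 116 to 129 with DCC-2036 and at 910.2 to 1173 in control, and CD276 showed the opposite order.

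Values are array intensities, on a linear scale, listed per array for replicates 1, 2 and 3, and log2 changes are differences of log2(intensity + 1) with the standard error of limma. CD274, the principal ligand of PD-1, had 116, 119 and 129 with DCC-2036, against 1101, 910.2 and 1173 in control. The 3 treated values lay within a narrow band, and the lowest control array was still several times brighter than the highest treated one. The log2 change was -3.11 ± 0.16, at percentile 0.23 of the changes of all 17185 genes. PDCD1LG2, the second PD-1 ligand, had 189, 178 and 158 with DCC-2036, against 433, 413 and 320.3 in control. Its groups did not overlap either, but its log2 change, -1.14 ± 0.17 (percentile 7.49), was much smaller than that of CD274. With any single array left out the log2 change stayed between -3.22 and -3.04 for CD274 and between -1.27 and -1.05 for PDCD1LG2.

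CD276 encodes B7-H3, a B7 family protein that many carcinomas display and whose receptor on T cells is not settled. It had 5079, 5052 and 5481 with DCC-2036, against 1209.8, 1189.9 and 1446 in control. The groups were far apart, and the arrays agreed closely within each. The log2 change was 2.03 ± 0.15, at percentile 99.41 of all genes, and between 1.97 and 2.11 with any single array left out. VTCN1 encodes B7-H4, a B7 family protein that inhibits T cells. Its values were 35.1, 39.7 and 55.6 with DCC-2036, against 18.1, 24.6 and 23.7 in control, and although the groups did not overlap, the record lay in the dimmest 25% of all records (mean under 74.1). Its log2 change was 0.93 ± 0.22 (0.63 when the constant added to intensities was 16). It fell short of the threshold without treated array 2 (0.98), treated array 3 (0.74), control array 1 (0.80), control array 2 (1.01) or control array 3 (0.98), each leaving 1 ligand higher, CD276.

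ICOSLG, which binds the T cell costimulator ICOS, had 294, 306 and 352 with DCC-2036, against 1087, 1365 and 1039 in control. All treated arrays were lower than all control arrays, with a log2 change of -1.87 ± 0.17 (percentile 2.18, and -1.94 to -1.74 with any single array left out). A near-identical copy of this gene is known, and the record cannot tell copies apart. CD80, a ligand of CD28 and CTLA4 typical of antigen-presenting cells, had 50.1, 16.2 and 49.5 with DCC-2036, against 19.4, 13.9 and 37.9 in control. CD86, which shares these receptors, had 146, 101 and 173 with DCC-2036, against 84.3, 92.6 and 152 in control. Both had overlapping groups, with log2 changes of 0.64 ± 0.54 for CD80 and 0.36 ± 0.30 for CD86, and CD80 lay in the dimmest 25% of records. The table has no detection call, so a dim record cannot be called absent.

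PVR, a nectin-like adhesion protein recognised by TIGIT, CD96 and CD226, had 2813, 3673 and 3685 with DCC-2036, against 7829.8, 6230.1 and 6974 in control. Every treated array was below every control array, with a log2 change of -1.05 ± 0.18 (percentile 8.93). NECTIN2, recognised by PVRIG, TIGIT and CD226, had 3886, 5163 and 5709 with DCC-2036, against 5510.0, 5698 and 5631 in control. The groups overlapped: treated array 1 was the lowest of the 6 arrays and treated array 3 the highest, and the log2 change was -0.21 ± 0.18 (-0.33 to -0.05 with any single array left out). TNFSF9, a TNF family ligand that costimulates T cells through 4-1BB (TNFRSF9), had 159, 241 and 195 with DCC-2036, against 576, 502 and 510.2 in control. Its groups were clearly separated, with a log2 change of -1.43 ± 0.19 (percentile 4.36).

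**Figure D2:**
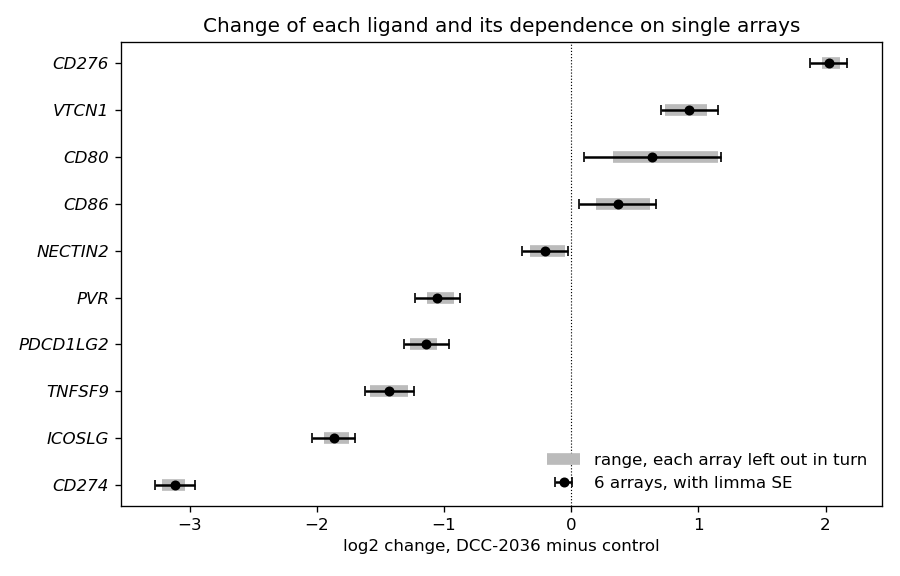
The log2 change of each ligand, DCC-2036 minus control (point, with the standard error of limma over 6 arrays), and the range of that change when each array is left out in turn (grey bar). CD276 at 2.03 and CD274 at -3.11 mark the ends. No grey bar changes sign, but the bars are not confidence intervals, and NECTIN2, CD80 and CD86 had overlapping groups.

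The sequences before the start sites of CD274, TNFSF9 and PVR are shown because these lower ligands held motif matches, with that of CD276, the ligand with the largest higher value, beside them. They are RefSeq sequences of GRCh38.p14, 250 bases up to the base before the start site, read 5′ to 3′ on the gene's strand, at chr9:5450292-5450541 (CD274, plus strand), chr19:6530776-6531025 (TNFSF9, plus), chr19:44643660-44643909 (PVR, plus) and chr15:73684133-73684382 (CD276, plus, the first of the starts listed for it). Capitals mark motif matches. Not shown are ICOSLG, also lower, which held no match, and VTCN1, which was higher and held a match just after its start site.
CD274: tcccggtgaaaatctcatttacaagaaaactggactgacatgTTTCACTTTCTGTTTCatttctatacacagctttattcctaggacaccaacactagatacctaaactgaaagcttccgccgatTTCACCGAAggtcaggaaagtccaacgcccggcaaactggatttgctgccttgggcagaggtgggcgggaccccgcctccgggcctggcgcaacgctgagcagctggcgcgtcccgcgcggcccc
TNFSF9: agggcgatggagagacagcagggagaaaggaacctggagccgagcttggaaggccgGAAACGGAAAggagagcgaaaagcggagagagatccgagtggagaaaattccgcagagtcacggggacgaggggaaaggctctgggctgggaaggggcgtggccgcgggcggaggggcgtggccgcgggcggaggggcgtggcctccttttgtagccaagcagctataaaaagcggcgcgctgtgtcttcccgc
PVR: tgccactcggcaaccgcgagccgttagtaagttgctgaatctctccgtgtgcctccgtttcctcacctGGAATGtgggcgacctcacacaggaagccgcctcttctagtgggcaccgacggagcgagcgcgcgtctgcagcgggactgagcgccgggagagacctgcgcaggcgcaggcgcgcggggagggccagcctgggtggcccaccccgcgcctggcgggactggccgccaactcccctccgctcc
CD276: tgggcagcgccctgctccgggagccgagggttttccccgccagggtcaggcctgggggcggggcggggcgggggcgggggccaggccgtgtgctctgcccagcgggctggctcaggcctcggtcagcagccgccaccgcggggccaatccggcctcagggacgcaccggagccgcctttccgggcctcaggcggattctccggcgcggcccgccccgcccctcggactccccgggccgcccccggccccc

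The motifs were searched on both strands of windows of 300 bases, from 250 before to 50 after the start site, of which 9 of the 10 ligands have at least 1 (PDCD1LG2 has none in the table). CD274 held overlapping matches to the interferon response element of IRF factors, on the opposite strand, starting 208 and 202 bases before the start site, and a match to the STAT element TTCNNNGAA starting 125 bases before it. Of 35116 promoters in the table, 3.57% held the first motif and 7.66% the second. TNFSF9 also held the interferon response motif, starting 194 bases before its start. In PVR the TEAD motif CATTCC, found in 14.0% of promoters, matched on the opposite strand starting 182 bases before the start. VTCN1 matched the AP-1 motif TGANTCA (7.71% of promoters) just after its start, and 1 of the start sites of CD86 had overlapping NF-kB motif matches (5.91%) starting 82 and 81 bases before it. The E-box CACGTG (7.26%) matched in none of the ligands' windows, and the windows of CD276, ICOSLG, NECTIN2 and CD80 held none of the 6 motifs searched. A match of letters is a description of the sequence and not of binding.

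Among 33 measured regulators reported to act on PD-L1 transcription, 3 were higher and 7 lower past the threshold (limma adjusted p under 0.05 over all genes), 23 missed it, and the median log2 change was 0.05. All genes passed at 13.1% higher and 16% lower, 29.1% together, and the 10 of 33 lie near that share. MYC, a transcription factor reported to bind the CD274 promoter, had 3970.0, 4012 and 3885 with DCC-2036, against 11793, 14410.3 and 14179 in control (log2 change -1.76 ± 0.15, limma adjusted p = 0.0011). FOSL1, an AP-1 subunit, had 3199, 5344 and 5863 with DCC-2036, against 21009.8, 21699.7 and 14724 in control (-2.02 ± 0.29, limma adjusted p = 0.00445). Both showed wide gaps between the groups, and TEAD1, the DNA-binding partner of YAP, also fell, to a mean of 860.1 ± 130.0 with DCC-2036, against 1788 ± 123 in control (SD, n = 3 arrays each, limma adjusted p = 0.00578). The other members that fell were STAT2, YAP1, IFNAR1 and NFKB1, the last of which did not pass without treated array 1 (-0.55), treated array 2 (-0.78), control array 1 (-0.64), control array 2 (-0.75) or control array 3 (-0.77).

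Among the higher members, SOCS1, a feedback inhibitor of JAK kinases, rose 2.01-fold (limma adjusted p = 0.0113). STAT3 rose 1.55-fold (0.63 ± 0.14, limma adjusted p = 0.0197), but missed the threshold in its second record (0.46) or without treated array 2 (0.57) or any control array (0.58 to 0.67). The receptor chains and JAK1 of the interferon-gamma route did not pass the test. The receptor chain IFNGR1 had a log2 change of 0.10 ± 0.13, IFNGR2 0.08 ± 0.19 and the kinase JAK1 0.05 ± 0.19. IRF1, the factor through which interferon-gamma induces CD274, had 2986, 3223 and 3975 with DCC-2036, against 2953, 2248 and 2245 in control (0.45 ± 0.19, limma adjusted p = 0.125). Its treated values were all above its control values, the opposite order to that of CD274. JAK2 was dim in both groups, with 46.8 ± 10.4 with DCC-2036 and 84.6 ± 47.7 in control (SD, n = 3 arrays each).

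Genes that act on PD-L1 protein numbered 19, of which 1 rose, 4 fell and 14 missed the threshold, with a median log2 change of -0.06. Here too the 5 of 19 lie near the 29.1% of all genes. CMTM6, a membrane protein that protects PD-L1 from lysosomal degradation, had 1967, 1796 and 1915 with DCC-2036, against 3191, 3429 and 2723 in control (-0.71 ± 0.15, limma adjusted p = 0.0161). It did not pass without treated array 2 (-0.68), control array 1 (-0.69) or control array 2 (-0.64). CDK4, the cyclin D-dependent kinase that restrains PD-L1 levels through SPOP, fell 1.82-fold (limma adjusted p = 0.00892). ADAM10, a sheddase, also fell (-0.50 ± 0.15), and lost its call without any single array (-0.56 to -0.40). OTUB1, a deubiquitinase, rose 1.44-fold (0.53 ± 0.14, limma adjusted p = 0.0325) and lost its call without any single array (0.47 to 0.58). The 4 lower members were 2 without treated array 2, control array 1 or control array 2. No PD-L1 protein was measured.

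A list of other ligands of immune receptors, outside the 10, numbered 35 genes. It also counts enzymes such as NT5E and receptors such as CD40, and is called other ligands here for short. Of the 35, 5 rose, 8 fell and 22 missed the threshold, with a median log2 change of 0.04. Among all genes 29.1% passed, 13.1% higher and 16% lower. NT5E, the ectonucleotidase CD73 that makes immunosuppressive adenosine, had 743, 719 and 828 with DCC-2036, against 2917, 3519.7 and 3524 in control (-2.12 ± 0.15, limma adjusted p = 0.000865). Of the butyrophilins, relatives of the B7 proteins, BTN2A2 fell 3.01-fold (limma adjusted p = 0.00229), BTN2A1 2.13-fold (limma adjusted p = 0.00296), and BTN3A1 and BTN3A2 by log2 changes of -0.65 ± 0.15 and -0.64 ± 0.14. The other members that fell were ICAM1, the ligand of the leukocyte integrin LFA-1 (-1.09 ± 0.28), CD40, a TNF receptor family member (-0.74 ± 0.17), and MICB, a ligand of the NK cell receptor NKG2D (-0.64 ± 0.15). The 8 lower members were 3 without treated array 2, control array 1 or control array 2 and 5 without control array 3, while NT5E, BTN2A1 and BTN2A2 passed without each array in turn. BTN3A1, BTN3A2, MICB, CD40 and ICAM1 each missed it without treated array 2, control array 1 or control array 2.

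NECTIN1, a nectin that binds CD96, rose: it had 557, 515 and 619 with DCC-2036, against 182, 236 and 159.9 in control (1.56 ± 0.19, limma adjusted p = 0.00293), and its second record had a log2 change of 3.55. The paralog NECTIN4, a TIGIT ligand, rose 1.65-fold (limma adjusted p = 0.0104), so within the nectin family NECTIN1 and NECTIN4 were higher, PVR was lower, and NECTIN2 and NECTIN3 (-0.15 ± 0.22) had overlapping groups. CD58, the ligand of the T cell adhesion receptor CD2, rose 1.98-fold (limma adjusted p = 0.00603). CD70, the ligand of CD27 and a TNF family relative of TNFSF9, had 299, 401 and 419 with DCC-2036, against 191, 148 and 187 in control (1.08 ± 0.20, limma adjusted p = 0.01). SIGLEC15, an immunosuppressive sialic acid receptor, was the fifth (0.99 ± 0.22), and did not pass without treated array 2 (0.94), treated array 3 (0.97), control array 1 (0.95) or control array 2 (0.83).

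Of the 14 counter-receptors, which belong to T and NK cells, 0 passed in the limma test, and 0 passed with its trend and robust settings or with a test on each gene's own variance. At an unadjusted p under 0.05 there were 2, KLRK1 higher and LAG3 lower, and 8 of the 14 were in the dimmest 25% of records. TNFRSF9, the receptor of TNFSF9 and the brightest of them, had 346, 471 and 409.9 with DCC-2036, against 859.7, 647 and 449 in control (-0.63 ± 0.27, limma adjusted p = 0.128), and passed without control array 3 (-0.88). PVRIG, the next, had overlapping groups (-0.18 ± 0.26), and the PD-1 gene PDCD1 had 116, 31.3 and 103 with DCC-2036, against 79.6, 92.9 and 71.6 in control.

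**Figure D3:**
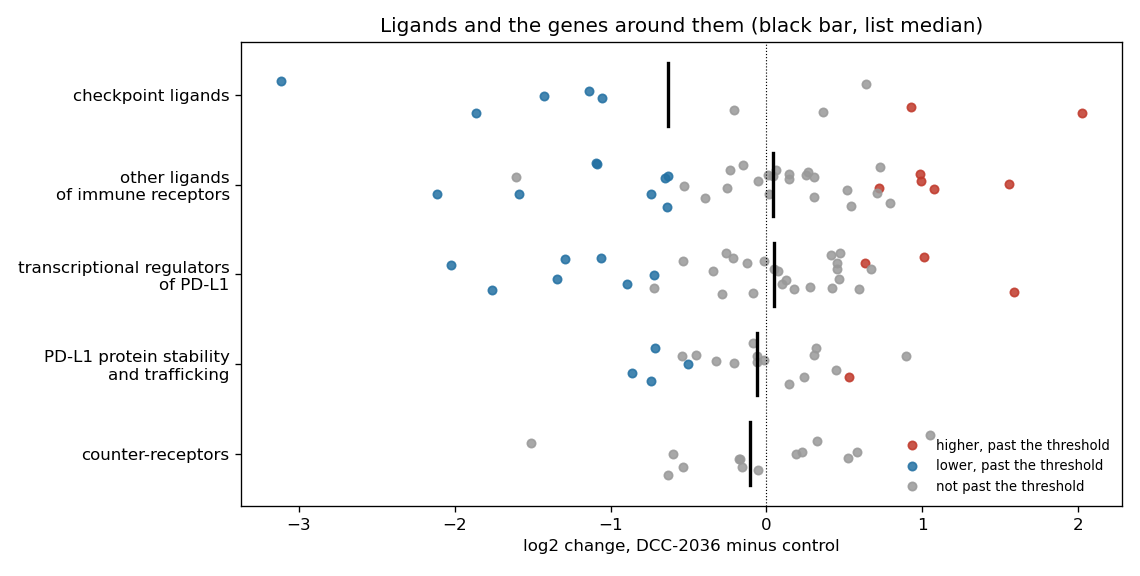
Each point is the log2 change of a gene, DCC-2036 minus control, in the 10 checkpoint ligands and the 4 lists around them, coloured by whether it lay past the limma threshold. Black bars are list medians, -0.63 for the ligands and between -0.11 and 0.05 for the others.

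CD274 and PDCD1LG2 lie next to each other on chromosome 9, and their measured protein-coding neighbours were read in the order of the RefSeq gene table (GRCh38.p14). PLGRKT, the plasminogen receptor gene on one side of the pair, had 165 ± 16.9 with DCC-2036 and 293 ± 80.1 in control (SD, n = 3 arrays each, -0.79 ± 0.23, limma adjusted p = 0.0477). RIC1, a Golgi trafficking gene on the other side, had 201 ± 43.1 with DCC-2036 and 371 ± 81.8 in control (-0.89 ± 0.24, limma adjusted p = 0.0348), and RANBP6, an importin-like gene further along, fell by a log2 change of -0.93 ± 0.15 (limma adjusted p = 0.00597). These changes were each much smaller than that of CD274, while that of PDCD1LG2 (-1.14 ± 0.17) was nearer to them in size. ERMP1 and BRD10, between RIC1 and RANBP6, did not pass (0.31 ± 0.22 and -0.37 ± 0.14), nor did MLANA, RLN1, RLN2 and INSL6. INSL4, on the side of PLGRKT and in the dimmest 25% of records, had 100.1 ± 51.5 with DCC-2036 and 36.2 ± 6.74 in control, with groups that did not overlap (1.31 ± 0.42, limma adjusted p = 0.0585). It passed without treated array 3 (1.76, limma adjusted p = 0.0128) and with the trend and robust settings (limma adjusted p = 0.048). PLGRKT kept its call without control array 3 but not without any of the other arrays (-0.85 to -0.60). RIC1 lost it without treated array 2 (-0.72), treated array 3 (-0.90), control array 1 (-0.72) or control array 3 (-0.92).

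**Figure D4:**
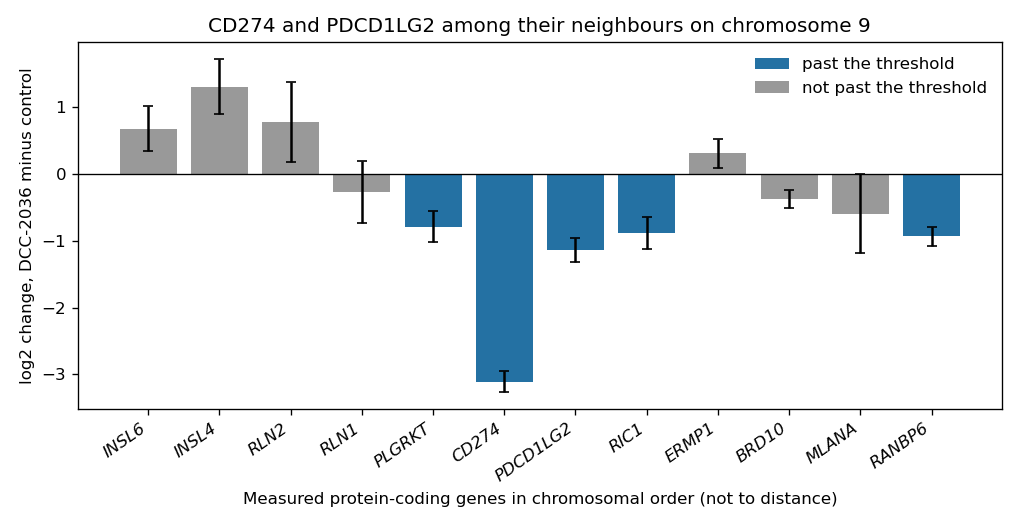
Bars give the log2 change, DCC-2036 minus control, with the standard error of limma, for 12 measured genes in chromosomal order around CD274 and PDCD1LG2. CD274 reached -3.11 and PDCD1LG2 -1.14, with PLGRKT at -0.79 and RIC1 at -0.89 on either side of the pair.

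Around the other ligands as a set, neighbours past the threshold went in both directions. Near CD276, CD80 and CD86 they were only higher, 2, 2 and 1 of 10 measured neighbours in that order. Near CD274 and PDCD1LG2 they were only lower, 2 and 3 of 9, in windows that share PLGRKT and RIC1. Beside the 29.1% of all genes that passed, nothing is read from counts this small. Within 5 measured genes of any ligand lay 85 different genes, with 9 higher and 10 lower past the threshold and 66 short of it, a smaller share than the 29.1% of all genes. With the dimmest 25% of records left out, 59 neighbours remained, 11 higher and 13 lower. That share was near that of all genes under the same filter, 2519 higher and 3060 lower of 13082. Beside CD276, NPTN did not pass (-0.42 ± 0.17), while LOXL1, a lysyl oxidase, and PML, the nuclear body protein, rose by 1.08 ± 0.25 and 1.39 ± 0.19. Next to TNFSF9 lay CD70, which moved in the opposite direction, and C3, the complement component, which fell (-1.09 ± 0.14). Beside ICOSLG, GATD3 (-1.38 ± 0.19) and PWP2 (-0.73 ± 0.14) fell. Of the genes around VTCN1, TTF2, a transcription termination factor, fell (-2.06 ± 0.19) and TENT5C rose (1.15 ± 0.23), and near CD86 FAM162A rose (1.48 ± 0.17). CEACAM19, next to PVR, fell (-1.05 ± 0.24), without passing when control array 2 (-0.93) or control array 3 (-1.09) was left out. LOXL1 did not pass without treated array 2 (0.94) or control array 1 (0.87). BCL3, ARHGAP31, POPDC2, PFKL, TRAPPC10 and SH2D3A also passed, with log2 changes of 0.56, 0.72, 0.69, 0.56, -0.99 and -0.95 in that order, and each missed the threshold when any of 4 or more of the 6 arrays was left out. The count of 9 higher neighbours was 5 without treated array 2, control array 1 or control array 3, and that of 10 lower was 6 without treated array 2 or control array 2.

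NECTIN2, CD80 and CD86, which missed the threshold and had overlapping groups, were left out of a search for like genes. For each other ligand, the most alike genes over the 6 arrays were found by Pearson's r of log2 values. The search covered the 8593 genes at or above the median brightness. The 6 arrays form 2 groups, so the r values mostly restate the group difference. For CD274 the closest were BTG3, an antiproliferative gene (r = 0.9997), ZNF217 (0.9996) and NDUFAF3 (0.9993), and 509 genes had an r over 0.98. For PDCD1LG2 they were NFKBIE, an inhibitor of NF-kB (0.9985), PIP5K1A (0.9972) and TMCO6 (0.997). CD276 was nearest to DEDD2 (0.9995), PTP4A2 (0.9992) and SLC27A1 (0.9991), a fatty acid transporter that rose by 2.10 ± 0.16. ICOSLG was nearest to PEX13, LACTB2 and POLR1C, PVR to MED20, HEMK1 and MRTO4, TNFSF9 to MGME1, UTP3 and DOCK9, and VTCN1 to FOXJ2, TPMT and SUFU.

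Median intensities were 267 to 273 on the DCC-2036 arrays and 265 to 274 on the control arrays, and correlations of log2 values across genes were 0.9635 to 0.9777 within a group and 0.9292 to 0.9368 across groups. Among markers of the line, ESR1 and PGR lay in the dimmest 25% of records, ERBB2 was 1814 ± 40.6 with DCC-2036 and 1811 ± 256 in control, and VIM, a mesenchymal filament gene, was 11529.6 ± 888 with DCC-2036 and 16441 ± 1189 in control (SD, n = 3 arrays each, -0.51 ± 0.14, limma adjusted p = 0.04). The epithelial keratin KRT8 went the other way, with 15549 ± 1351 with DCC-2036 and 6607 ± 914 in control (1.24 ± 0.17, limma adjusted p = 0.00385). Its partner KRT18 had a log2 change of 0.68 ± 0.24 (limma adjusted p = 0.0811) and groups that did not overlap, while those of CD44 overlapped (-0.29 ± 0.36). Of 11 leukocyte markers 7 lay in the dimmest 25%, among them PTPRC, CD3E and CD3D. Their summed intensity was 916 to 975 with DCC-2036 and 681 to 822 in control, where NCAM1, also a neural gene, was the member past the threshold (151 ± 25.3 with DCC-2036 and 26.9 ± 5.75 in control). The part of these markers in the ligand values was not tested.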

How the data were processed

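RNA from MDA-MB-231 cultures, 3 with DCC-2036 and 3 controls, was measured on one-colour NimbleGen arrays, per the labels. The deposited table holds 45033 records with intensity values on a linear scale (8.03 to 65365), which the authors made with RMA, per the submitters' processing notes. Neither the background correction, nor the number of probes per record, nor a genome build for the array is stated in the labels. Records were named by the platform's table (18188) or by accession in a RefSeq table (678), and 26167 had no name. Each of 17185 genes was represented by its brightest record.

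The log2 of each intensity plus 1 was fitted gene by gene with limma 3.58.1 (R 4.3.3, lmFit and eBayes), the test was two-sided without covariates, and p-values were adjusted by Benjamini-Hochberg across the 17185 genes. Folds were back-calculated from log2 changes. Plots were made with Python 3.11.15 and matplotlib 3.10.9. The fit was tested on simulated data. The number of arrays, 3 per group, limits precision, and no slide or scan date allowed a batch test.

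The ligands, lists and motifs were chosen with earlier results of these data known. Named genes were the 10 ligands and up to 3 members in each direction with the smallest p per list (the 2 brightest where none passed). The neighbours of CD274 and PDCD1LG2, neighbours past the threshold, and the 3 most alike genes per ligand past the threshold were also named. Others, PDCD1, KLRK1, LAG3, IRF1, IFNGR1, IFNGR2, JAK1, JAK2, NPTN and the remaining members past the threshold among them, were named after their values were seen. Alternatives were another normalization or pseudocount, a filter on dim records, other variance models and tests, other records of a gene, a replicate block and each array left out. Some members of the lists are counted but not reported by name here.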

Additional observations from a re-analysis of the deposited data

How the results depend on the processing

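The ligands were chosen with this contrast in view, so their counts across the alternatives describe the processing and are no support for their direction. Outside the single-array omissions the log2 change was -3.12 to -2.97 for CD274 and 2.01 to 2.06 for CD276. The 2 higher ligands were 1 with the dimmest 25% of records left out, which removes VTCN1 and CD80, with the trend and robust settings and with a plain t-test, and 1 to 2 with 1 array left out, while the 5 lower ligands stayed 5. The replicate numbers share only a number: deviations of same-numbered arrays correlated at -0.08, 0.04 and -0.09, and not every array correlated best with its own number. With the replicate block 1376 genes were higher and 1793 lower (2257 and 2745 without it), 3 other ligands were lower, 0 stability genes were higher and 2 lower, and 5 neighbours were higher. The 1 higher stability gene became 2 with 16 added before the log or a plain t-test and 3 without dim records or with the trend and robust settings. The 3 higher regulators of PD-L1 became 5 without dim records or with the mean of a gene's records and 8 with the trend and robust settings, and a plain t-test left 6 lower neighbours. With 1 array left out, 1421 to 1886 genes were higher and 1721 to 2307 lower, other ligands were 4 to 5 higher and 3 to 7 lower, regulators 2 to 3 higher and 6 to 7 lower, stability genes 0 to 1 higher and 2 to 4 lower, neighbours 5 to 9 higher and 6 to 9 lower, and counter-receptors 0 to 1 in each direction. The cause of these shifts was not tested. Dim records, VTCN1 and CD80 among the ligands, limit what can be read.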
